A study of Homo sapiens with 4 samples.

Results

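The genes described here are IL32, TRAF1, BIRC3, NFKBIA, TNFAIP3, NFKB1, NFKB2, RELB, ICAM1 and TNFAIP2, which are regulators, subunits and targets of the transcription factor NF-kB. They were found by gene name and make up 10 of the 58735 genes in the FPKM tables of an RNA-seq study of glioblastoma cells. FPKM counts sequenced fragments per length of transcript and per size of library, so levels of different genes can be set side by side. Averaged over the libraries, all 10 reached an FPKM of 1, the filter used here, which 12949 genes passed. The members were chosen by name with the Bru to Control ratios of these same libraries known, so their FPKM values and ratios are a description and are not used as evidence.

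Human glioblastoma cells of the lines U251 and U87 were compared with and without Bru by sequencing total RNA, with 1 library in each of the 4 groups, named U251 Control, U251 Bru, U87 Control and U87 Bru. Bru is brusatol, a plant quassinoid known as an inhibitor of NRF2 and of protein synthesis, dissolved in DMSO. Cells were exposed to Bru at its IC50 for 48 h, and the sources used here do not give the concentration for the sequenced cells or say whether their Control received DMSO. Both are established lines grown as monocultures, so that no stroma or immune cells of a tumour are part of the model. With 1 library in each group there was no replicate check, and no p-value is given. The 95% intervals are exact Clopper-Pearson intervals from the read counts recovered from the FPKM. They cover counting error only, since each group has 1 library, and they compare libraries rather than conditions. The paper describes no molecular identifiers, so copies of the same fragment cannot be told apart.

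The libraries held 17083896 to 21453561 reads on genes. At this depth, 3 reads on a gene of 1 kb correspond to an FPKM of 0.143 to 0.172, and each of the 10 genes had between 27 and 3642 reads in each library. Of the 8 markers of glial lines, VIM was at an FPKM of 606 to 701 and CD44 at 94.5 to 125. NES was at 125 and 50.6 in U251 Control and Bru, and at 1.46 and 0.569 in U87. OLIG2 did not exceed 1.05 and CHI3L1 did not exceed 0.714. SOX2 was at 129 and 91.2 in the U251 libraries and at 0 and 0.0457 in U87, whereas GFAP, the intermediate filament that defines astrocytes, did not exceed 2.42 and S100B did not exceed 0.296. NF-kB genes are also abundant in leukocytes, so 17 lymphocyte and myeloid markers were summed, which gave an FPKM of 0.754 for Control and 1.37 for Bru in U251, and of 3.22 for Control and 3.59 for Bru in U87. CD3D, CD3E, MS4A1 and AIF1 were at 0 in all libraries, the pan-leukocyte gene PTPRC did not exceed 0.0156, and the highest value of the list was 1.32, for CSF1R in U87 Control. This sum was higher in Bru and in U87, and its part in the levels given here was not tested. The summed FPKM of 6 endothelial markers was 4.46 and 3.70 in U251 Control and Bru and 1.09 and 0.903 in U87 Control and Bru, with KDR at 4.08 and 3.49 in U251.

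NF-kB is a family of dimeric transcription factors that waits in the cytoplasm, bound by inhibitory IkB proteins or by its own unprocessed precursors. In the canonical route, ligands such as TNF trigger the IkB kinase, IkB is degraded, and dimers of NFKB1 and RELA enter the nucleus. In the noncanonical route, the NFKB2 precursor is processed and pairs with RELB, and BIRC3 together with TRAF proteins keeps the kinase of this route low. Many genes switched on by NF-kB, among them NFKBIA, TNFAIP3, BIRC3 and TRAF1, feed back on the pathway, and in glioblastoma NF-kB is known for its part in inflammatory signalling and resistance to cell death.

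NF-kB binds a short element called the kB site. The kB consensus (GGG, a purine, 2 bases of any kind, 2 pyrimidines and CC) was searched on both strands in RefSeq promoter windows on the GRCh38.p14 build, from 250 bases before to 50 bases after an annotated start. Of the 10 genes, 9 had at least 1 window and RELB had no entry. The consensus was found in 7 of the 15 windows and in 6 genes, and it was found in 11.27% of all 35116 windows and for 13.25% of the 27305 genes with a window. The stretches are shown since they place the element that defines the family beside the genes whose levels follow. Capitals mark the letters of the match, which overlap where 2 matches share bases, and a match is a description and not a measured binding site.
IL32, chr16:3065295-3065324, plus strand: ctgtactcaGGGAGTTTCCCcagccagctg
BIRC3, chr11:102317275-102317304, plus strand: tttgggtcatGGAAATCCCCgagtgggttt
BIRC3, chr11:102317339-102317368, plus strand: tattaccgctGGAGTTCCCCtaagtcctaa
NFKBIA, chr14:35404811-35404840, minus strand: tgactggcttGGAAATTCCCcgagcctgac
TNFAIP3, chr6:137867188-137867217, plus strand: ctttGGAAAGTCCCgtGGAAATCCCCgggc
NFKB1, chr4:102501300-102501329, plus strand: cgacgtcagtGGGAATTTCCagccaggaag
NFKB2, chr10:102394462-102394491, plus strand: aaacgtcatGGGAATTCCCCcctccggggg
NFKB2, chr10:102394490-102394519, plus strand: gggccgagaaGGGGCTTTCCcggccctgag
NFKB2, chr10:102395519-102395548, plus strand: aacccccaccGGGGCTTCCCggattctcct
NFKB2, chr10:102395674-102395703, plus strand: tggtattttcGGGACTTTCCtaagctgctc

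The matches of BIRC3 began 199 and 135 bases before its start, that of NFKBIA 81 bases before and that of NFKB1 49 bases before. In TNFAIP3 there were 2 matches, the first beginning 67 bases and the second 55 bases before the start. The matches of IL32 and TNFAIP3 and those at the second NFKB2 start lay within an exon of another transcript of the same gene in GENCODE release 29. The match nearest to the third NFKB2 start, 21 bases before it, overlapped such an exon by 1 base. The remaining matches lay outside the exons of their own gene, and exons of other genes were not checked. No match was found in the 3 windows of TRAF1 or in the windows of ICAM1 and TNFAIP2, which says only that these letters are not in those windows.

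**Figure D1:**
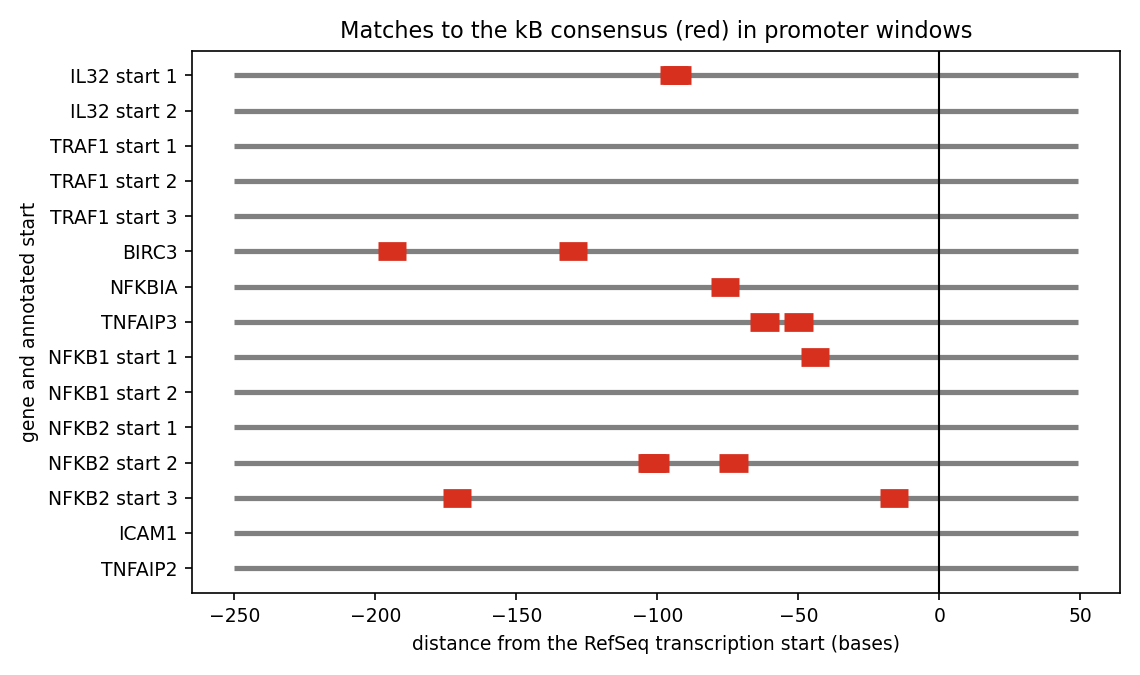
Positions of matches to the kB consensus (red blocks) in the promoter windows of 9 genes (grey lines, one for each annotated start), with the distance in bases from the RefSeq transcription start on the horizontal axis. All matches lie before the start, in windows of IL32, BIRC3, NFKBIA, TNFAIP3, NFKB1 and NFKB2.

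The comparison of Bru with Control asked how the treatment was reflected in transcript levels within each line. In U251, all 10 genes were higher in Bru than in Control, against 47.2% of all genes that passed the filter. On the log2 scale of FPKM + 0.1, which is used for all counts and medians and understates differences of low genes, IL32, TRAF1, BIRC3, TNFAIP3 and NFKBIA were above 1, that is 5 of 10 genes more than 2-fold higher and 0 lower, where the background was 3.36% higher and 5.44% lower. Over all genes this split of 435 higher and 705 lower became 551 and 578 after scaling to the 75th percentile. In U87, 7 of 10 were higher, against a background of 42.3%, and IL32 alone was more than 2-fold higher, against 1.92%, while 0 were more than 2-fold lower, against 1.41%. IL32 was thus past 2-fold in both lines, as were 0.456% of all genes. However, IL32 reached the filter mainly through its level in U251 Bru, 8.36. Its calls, here and below, are therefore not read against the shares of all genes. All 10 genes are protein coding, and among the 10851 protein-coding genes that passed the filter, 2.06% were more than 2-fold higher and 4.4% lower in U251, against 0.295% higher and 0.59% lower in U87. The larger share in U87 was therefore on the higher side over all genes and on the lower side among protein-coding genes. The median over the 10 genes was a log2 ratio of 1.02 in U251 against 0.33 in U87, beside -0.03 and -0.04 for all genes that passed the filter. Since the members were picked with these ratios known, nothing about the pathway is read from the counts. In bulk RNA, fewer cells of a kind and less RNA of a gene per cell cannot be told apart.

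**Figure D2:**
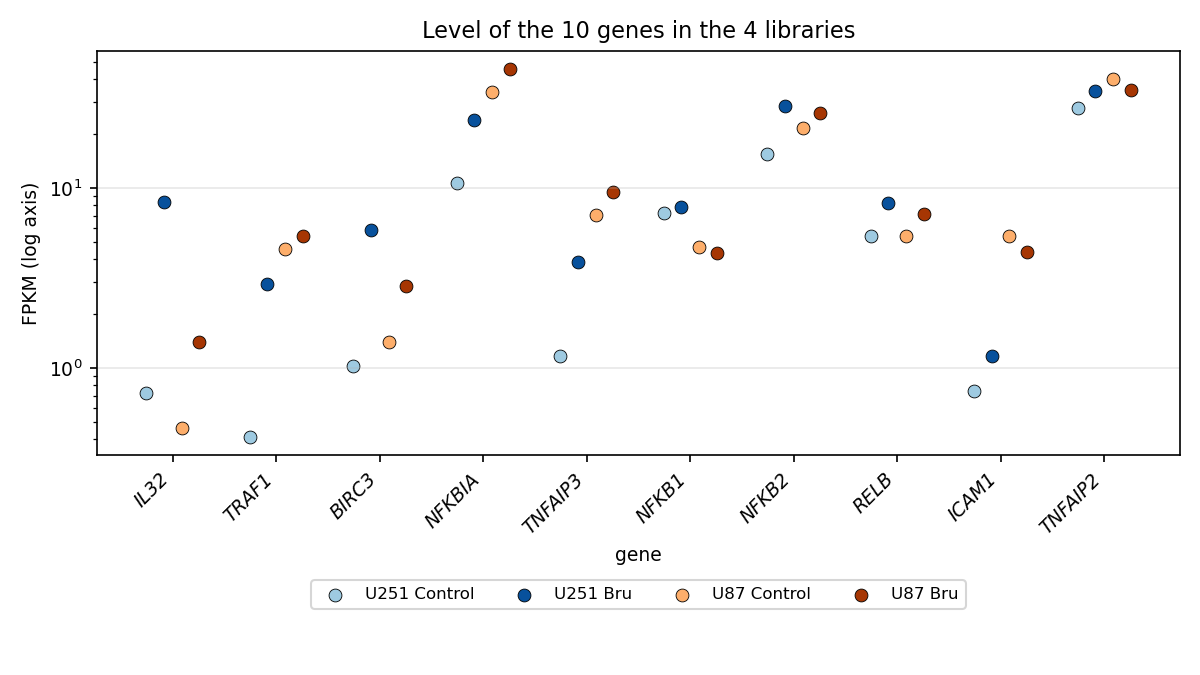
FPKM of the 10 genes in the 4 libraries, on a log axis, with 1 point for each library and no error bars, since each group has 1 library. IL32 moves from 0.728 to 8.36 in U251, while TNFAIP2 stays between 27.9 and 40.1 in all libraries.

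IL32 (ENSG00000008517, chr16:3065297-3082192, plus strand in the files) encodes a cytokine that induces TNF and other inflammatory mediators. In U251 its FPKM was 0.728 for Control and 8.36 for Bru, and in U87 it was 0.466 for Control and 1.40 for Bru. Both Bru libraries were above both Control libraries, and the U251 Bru library was far above the rest. The ratio of Bru to Control was 11.5-fold in U251, a log2 value of 3.52 (95% interval 3.10 to 3.98), and on FPKM + 0.1 it was 3.35, the 18th highest of the 12949 genes. In U87 the log2 ratio was 1.58 (0.94 to 2.27), from 27 reads in Control and 78 in Bru. On FPKM + 0.1 it was 1.40, ranking 142nd. The mean FPKM of 2.74 that passed the filter came mainly from U251 Bru, so both ranks are descriptions only. The interval of the Control libraries of the 2 lines, -1.38 to 0.06 for U87 over U251 on the log2 scale, included 0, so IL32 was not apart between the lines before treatment at this depth. With Bru, IL32 went from the 9th to the 4th place by FPKM among the 10 genes in U251 and stayed in the 10th place in U87.

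TRAF1 (ENSG00000056558, chr9:120902393-120929173, minus strand) is an adaptor that binds TRAF2 and the IAP ubiquitin ligases at TNF family receptors. Its FPKM in U251 was 0.414 for Control and 2.93 for Bru, whereas in U87 it was 4.60 for Control and 5.37 for Bru. The U251 Control library stood far below the rest, and the treated U251 library did not reach the untreated U87 library. Within U251, Bru was 7.07-fold over Control, a log2 ratio of 2.82 (2.41 to 3.26), from 56 and 350 reads. Within U87 it was 1.17-fold over Control, a log2 ratio of 0.22 (0.05 to 0.39). The Control level of U87 was 11.1-fold that of U251, with a log2 ratio of 3.47 (3.07 to 3.90), the widest gap between untreated lines among the 10 genes.

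BIRC3 (ENSG00000023445, chr11:102317450-102339403, plus strand) encodes a ubiquitin ligase of the IAP family that works with TRAF proteins below TNF receptors. The U251 libraries had an FPKM of 1.02 for Control and 5.86 for Bru, and the U87 libraries 1.39 for Control and 2.86 for Bru. Both Bru libraries lay above both Control libraries, as for IL32. The U87 Control library was 1.36-fold the U251 Control library, a log2 ratio of 0.45 (0.14 to 0.76). In U251 the ratio was 5.74-fold, a log2 value of 2.52 (2.28 to 2.77). In U87 it was 2.05-fold, a log2 value of 1.04 (0.78 to 1.30), which becomes 0.99 on FPKM + 0.1 and so falls just under the cutoff. BIRC3 therefore counted as below 2-fold in U87 here and as above it with a pseudocount of 0.01.

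NFKBIA and TNFAIP3 are the feedback inhibitors of the pathway. NFKBIA (ENSG00000100906, chr14:35401511-35404749, minus strand), the IkB protein that retains NF-kB in the cytoplasm, had an FPKM of 10.6 for Control and 23.9 for Bru in U251, and of 34.2 for Control and 45.6 for Bru in U87. TNFAIP3 (ENSG00000118503, chr6:137867188-137883312, plus strand), an enzyme that edits ubiquitin chains on signalling proteins, was at 1.16, 3.89, 7.04 and 9.43 in the same order. For both genes the order of the libraries was the same as for TRAF1, with the untreated U87 library above the treated U251 library. The log2 ratio of Bru to Control for NFKBIA was 1.17 (1.02 to 1.32) in U251 and 0.42 (0.32 to 0.52) in U87. That of TNFAIP3 was 1.74 (1.45 to 2.05) in U251 and 0.42 (0.27 to 0.57) in U87. The intervals of the 2 lines did not overlap for either inhibitor. An antisense gene, AL357060.1, overlaps TNFAIP3 and had 11, 11, 24 and 45 reads beside the 123, 364, 643 and 829 reads of TNFAIP3. The sources used here do not state that counting used the strand, so reads of the overlap cannot be told apart.

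The genes of NF-kB subunits among the 10 all lay within 2-fold between Bru and Control. NFKB1 (ENSG00000109320, chr4:102501329-102617302, plus strand), the precursor of a canonical subunit, had an FPKM of 7.22 for Control and 7.81 for Bru in U251, and of 4.67 for Control and 4.34 for Bru in U87. It was the one gene of the 10 whose interval included a ratio of 1 in both lines, with log2 ratios of 0.11 (-0.02 to 0.25) in U251 and -0.10 (-0.29 to 0.08) in U87. NFKB2 (ENSG00000077150, chr10:102394110-102402529, plus strand), the precursor of the noncanonical subunit, was at 15.3, 28.4, 21.6 and 26.0 in the same order. Both Bru libraries exceeded both Control libraries, with log2 ratios of 0.89 (0.80 to 0.99) in U251 and 0.27 (0.18 to 0.36) in U87. RELB (ENSG00000104856, chr19:45001430-45038198, plus strand), the partner of the processed NFKB2 protein, was at 5.37 for Control and 8.27 for Bru in U251, and at 5.42 for Control and 7.14 for Bru in U87. Its Control libraries were not apart, with a log2 ratio of U87 over U251 of 0.01 (-0.22 to 0.24) that became negative when rescaled to TPM or to the 75th percentile. Its Bru to Control ratios were 0.62 (0.42 to 0.83) and 0.40 (0.17 to 0.62). REL, a further subunit gene and not one of the 10, did not pass the filter, at a mean FPKM of 0.567. The log2 ratios of REL on FPKM + 0.1 were -0.20 in U251 and 0.02 in U87. RELA, the canonical partner of NFKB1 and not one of the 10, was at 15.8 for Control and 26.7 for Bru in U251, and at 19.6 and 24.4 in U87, with log2 ratios on FPKM + 0.1 of 0.76 and 0.31.

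ICAM1 and TNFAIP2 are TNF-induced genes with roles outside the signalling chain, in leukocyte adhesion and in membrane protrusions. ICAM1 (ENSG00000090339, chr19:10270835-10286615, plus strand) had an FPKM of 0.746 for Control and 1.16 for Bru in U251, and of 5.42 for Control and 4.40 for Bru in U87. The 2 lines were separated whatever the treatment, and Bru was above Control in U251 and below it in U87. The log2 ratios were 0.64 (0.14 to 1.16), from 58 and 80 reads, and -0.30 (-0.53 to -0.07), from 363 and 284 reads. TNFAIP2 (ENSG00000185215, chr14:103123442-103137439, plus strand) was at 27.9, 34.5, 40.1 and 34.8 in the same order. It had a log2 ratio of 0.31 (0.23 to 0.38) in U251 against -0.20 (-0.27 to -0.13) in U87, and the treated libraries of the 2 lines were not apart, at 0.01 (-0.06 to 0.09). By sign alone NFKB1 belonged with them, which made 3 of 10 genes with opposite signs in the 2 lines. The share was 32.6% of all genes that passed the filter, counted by sign without regard to the intervals.

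**Figure D3:**
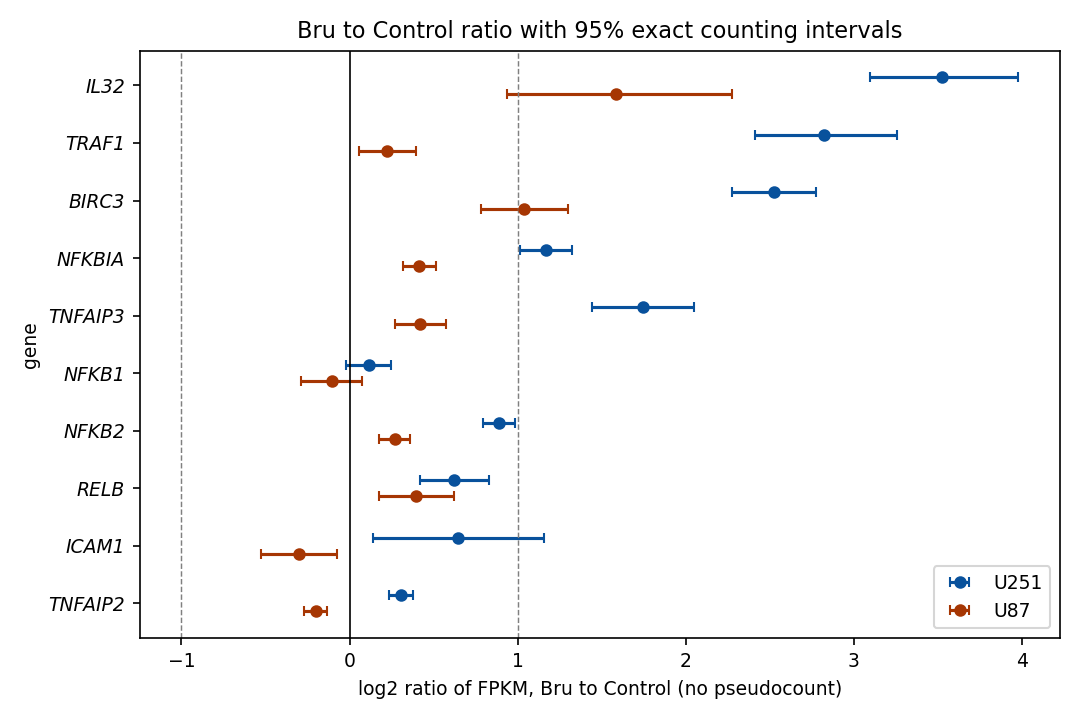
Log2 ratio of FPKM, Bru to Control without a pseudocount, for the 10 genes in U251 (blue) and U87 (brown), with 95% exact counting intervals as bars and dashed lines at 2-fold. The U251 ratio lies above the U87 ratio for every gene. The ratios of NFKB1, ICAM1 and TNFAIP2 lie on opposite sides of 0, for NFKB1 with intervals that include 0.

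Counted by these intervals alone, 9 of 10 genes were higher in Bru in U251, against a background of 30.9%, and 7 were higher and 2 lower in U87, against 15.7% and 28%. At these read numbers an interval can leave out 1 for a small ratio, as it did for TNFAIP2, and a ratio of this size has no replicate error to be set against.

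The comparison of the 2 lines asked whether the genes answered Bru to a like extent. The log2 ratio was lower in U87 than in U251 for all 10 genes, against a background of 50.9%, and for 4 of them, TRAF1, IL32, BIRC3 and TNFAIP3, the difference was below -1, where the background was 3.37%. The difference was -2.34 for TRAF1, -1.95 for IL32, -1.42 for BIRC3 and -1.25 for TNFAIP3 on FPKM + 0.1. Without a pseudocount the differences were -2.60 (-3.06 to -2.15), -1.93 (-2.73 to -1.11), -1.48 (-1.84 to -1.12) and -1.32 (-1.67 to -0.99) in that order. The differences of NFKBIA, NFKB2, ICAM1 and TNFAIP2 were -0.75, -0.62, -0.87 and -0.51, with intervals that left out 0. Those of NFKB1 and RELB were both -0.22, with intervals of -0.45 to 0.01 and -0.53 to 0.08, which included 0. These differences share no library between lines, but they compare 4 single libraries, and a difference between the lines as such was not tested. In the paper's viability time course, U251 received a higher concentration than U87, and whether the sequenced cells did is not stated. If the IC50 used was not the same in both, line and concentration cannot be told apart.

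In the untreated libraries, TRAF1, ICAM1, TNFAIP3 and NFKBIA were more than 2-fold higher in U87, 4 of 10 genes against a background of 14.5%, and 0 were more than 2-fold lower, against 16%. However, ICAM1 reached the filter mainly through U87, at 5.42 and 4.40 there and at 0.746 and 1.16 in U251. Its calls, here and in the treated libraries below, are therefore not read against the shares of all genes. ICAM1 was 7.26-fold, TNFAIP3 6.07-fold and NFKBIA 3.21-fold higher in U87 Control. NFKB1 was lower in U87 Control, at 0.647 of its U251 level. TRAF1, TNFAIP3 and NFKBIA were both high in untreated U87 and higher in Bru in U251. They remained lower in U251 Bru than in U87 Control, with log2 ratios of -0.65 (-0.85 to -0.45), -0.86 (-1.05 to -0.67) and -0.52 (-0.63 to -0.40). So did ICAM1, at -2.22 (-2.59 to -1.87), and TNFAIP2, at -0.22 (-0.29 to -0.15). IL32, BIRC3, NFKB1, NFKB2 and RELB were higher in U251 Bru than in U87 Control. In the treated libraries, IL32 and BIRC3 were more than 2-fold lower in U87 and TNFAIP3 and ICAM1 more than 2-fold higher, against 15% and 14.3% of all genes. The Control libraries enter both the comparison of the untreated lines and the ratios to Bru, so these values are given side by side only.

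By level, TNFAIP2, NFKB2 and NFKBIA took the first 3 places among the 10 genes in every library. NFKBIA moved from the 3rd place in U251 Control to the 1st in U87 Bru, at an FPKM of 45.6. The lowest gene was TRAF1 in U251 Control, ICAM1 in U251 Bru and IL32 in both U87 libraries.

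The wider pathway was described with 8 lists of subunits, IkB proteins, kinases, adaptors, ubiquitin enzymes, receptors, ligands and target genes. Without the 10 genes they held 126 genes, of which 92 passed the filter. Of these, 1 was more than 2-fold higher and 10 lower in U251, beside 3.36% and 5.44% of all genes, and 0 higher and 1 lower in U87, beside 1.92% and 1.41%. The median over the 92 was -0.00 in U251 against -0.01 in U87, close to the medians of all genes. The higher gene in U251 was TNFRSF9, a TNF receptor family member, which went from an FPKM of 0.0602 to 0.375 there and stood at 2.25 and 2.09 in U87. TNFRSF9 passed the filter only through U87 and rests on 8 and 44 reads in U251, and the lower gene in U87, IL18, passed only through U251 and had 9 reads in Control and 1 in Bru of U87, so that neither call is read against the background. On FPKM + 0.1, 0 of the 92 lay past 2-fold in both lines, while CCL2, at -2.54 in U251, missed the cutoff in U87 at -0.99 and would pass it without the pseudocount, at -1.10 (-1.90 to -0.35).

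The other targets of NF-kB, a list of 34 genes of which 22 passed the filter, lay mostly below 0 in U251. There, 0 of 22 were more than 2-fold higher and 7 were lower, beside 3.36% and 5.44% of all genes. A log2 ratio below 0 was seen in 16 and above 0 in 6, beside 47.2% of all genes above 0. The median was -0.33. In U87, 13 of the 22 were above 0, beside 42.3% of all genes, with a median of 0.12. Past 2-fold were 0, beside 1.92% higher and 1.41% lower of all genes, with CCL2 just inside the cutoff. CCL2, a monocyte chemokine, went from 22.0 to 3.69 in U251 and from 1.37 to 0.636 in U87. PLAU, the urokinase protease, went from 126 to 34.4 and from 64.1 to 42.0. CCND1, a cyclin of the G1 phase, went from 133 to 44.0 in U251 and from 153 to 141 in U87. CXCL8 and IL6, named after their values were seen since they are widely used readouts of NF-kB, had log2 ratios of -1.54 and -1.13 in U251 and of 0.51 and 0.54 in U87.

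Among the ligands, 8 of 19 passed the filter, and 2 were more than 2-fold lower in U251, where 5.44% of all genes were. TNFSF4, the OX40 ligand, went from 28.7 to 5.87 in U251, and CD70, the ligand of CD27, from 310 to 146. In U87, TNFSF4 was at 0.028 and 0.131, and IL18, an inflammatory cytokine, was at 0.190 and 0.0219. Of the receptors, 18 of 26 passed, and IL1RAP, the accessory chain of the IL-1 receptor, went from 3.63 to 1.33 in U251 and from 1.43 to 1.47 in U87. The rest of the signalling chain, without the members NFKBIA, TRAF1, BIRC3 and TNFAIP3, held no gene past the cutoff. In both lines, 0 of the 7 other IkB proteins, 0 of 16 kinases, 0 of 12 other TRAF and IAP adaptors and 0 of 11 other ubiquitin enzymes that passed the filter lay past 2-fold, beside 3.36% higher and 5.44% lower of all genes in U251 and 1.92% and 1.41% in U87, and the median log2 ratios of these lists lay between -0.05 and 0.11. Below the cutoff, some genes are named after their values were seen. In U251, the IkB genes NFKBIB and NFKBIE had log2 ratios without a pseudocount of 0.98 (0.84 to 1.11) and 0.81 (0.55 to 1.08). The adaptor gene TRAF4 had -0.84 (-0.93 to -0.75) there. On FPKM + 0.1, 4 of the 7 other IkB genes lay above 0 and 3 below in U251, from -0.68 to 0.97. Of the 12 other adaptors, 6 lay above 0 and 6 below.

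**Figure D4:**
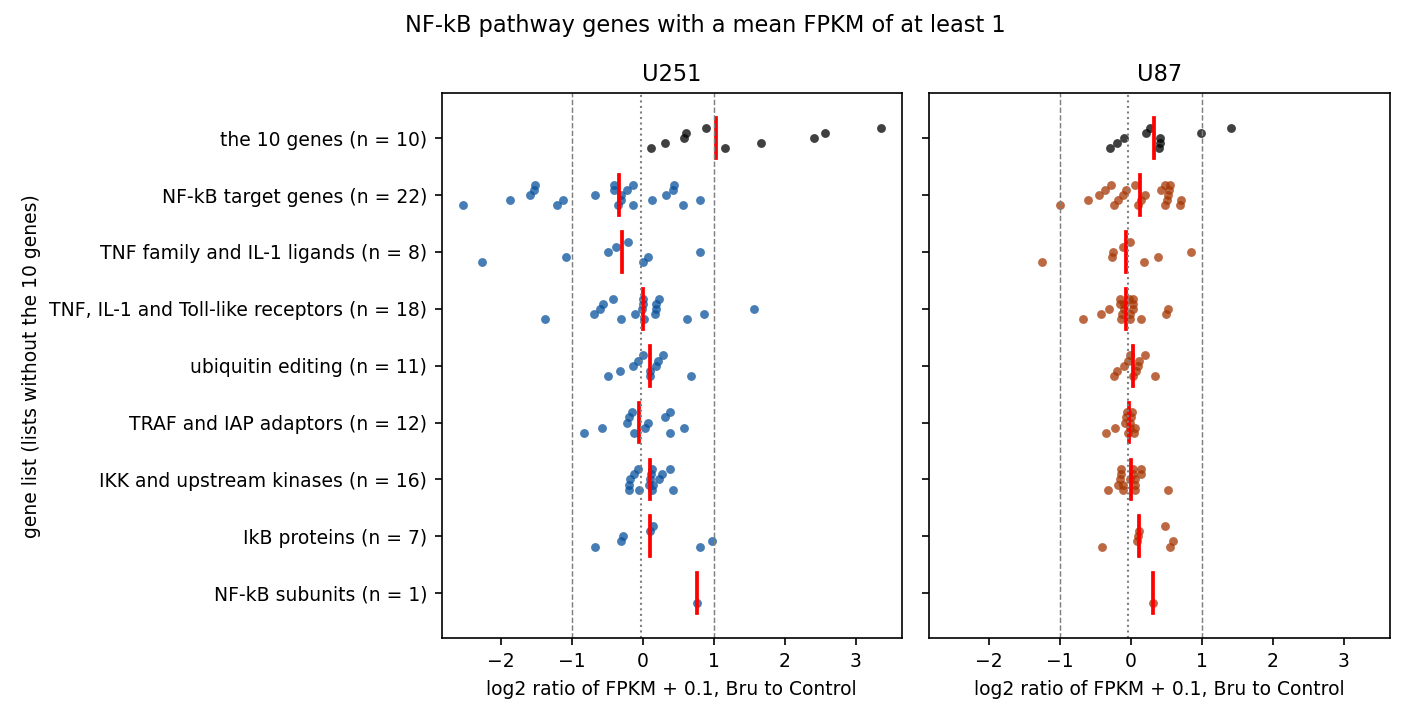
Log2 ratio of FPKM + 0.1, Bru to Control, for the 10 genes (black) and the other NF-kB pathway genes that passed the filter, by list, in U251 (left) and U87 (right). Red bars are list medians, dashed lines mark 2-fold and the dotted line is the median of all genes. The target genes other than the 10 have medians of -0.33 in the left panel and 0.12 in the right one.

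Genes with a pattern like those of IL32, TRAF1 and BIRC3 were found by the Euclidean distance of centred log2(FPKM + 0.1) over the 4 libraries, among 10850 other protein-coding genes. The distances are descriptions over 4 libraries that also set the members' own ratios. The nearest to IL32 were AC007325.4 at 1.19, GUCA1B at 1.20 and TRIM16L at 1.23, and BIRC3 ranked 7th at 1.42. The nearest to TRAF1 were C6orf52 at 0.27, LHB at 0.34 and HIST1H2AC at 0.38, and TNFAIP3 ranked 7th at 0.67. The nearest to BIRC3 were DDIT3 at 0.50, SQSTM1 at 0.51 and SLC3A2 at 0.62. IL32 and TRAF1 lay 3.69 apart, and 8976 genes were nearer to IL32 than TRAF1 was.

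The length and sequence of the genes bear on how their reads were assigned. IL32 has 35 annotated transcripts, 30 of them protein coding, and the files give 1 value for the gene, so its transcript forms cannot be told apart. Of the stretches of 31 bases in ICAM1 transcripts, 23.8% also occur in transcripts of other genes, against 5.22% for IL32, 3.84% for NFKB2, 1.30% for TNFAIP3, 1.20% for BIRC3, 0.661% for TNFAIP2, 0.0156% for TRAF1 and 0 for NFKBIA, NFKB1 and RELB. The share was largest for ICAM1. Both strands were searched, so an antisense gene at the same place counts as another gene. AC011511.5 overlaps ICAM1 in this way, and its part in the share of ICAM1 was not separated. How shared reads were assigned is not given in the sources used here. The other genes that overlap a member, RNU1-125P and AC108134.3 at IL32 and AC011511.5 and AC011511.2 at ICAM1, had at most 1 read in a library.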

How the data were processed

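Total RNA of U251 and U87 cells was made into paired-end Illumina libraries with the NEB Next Ultra RNA kit. The authors deposited FPKM for each gene and library, with the gene length in bases. The submitters' processing notes name HISAT2 2.0.5, StringTie 1.3.3b, featureCounts 1.5.0-p3 and DESeq2 1.16.1 and the build hg18, whereas 58724 of the 58735 genes have the start and end of GENCODE release 29 on GRCh38, which the coordinates printed here follow. The library size inside the FPKM is not given in the sources used here. FPKM times length was a whole multiple of 1 step for 100% of the values above 0, within 0.01 reads, with a largest deviation of 4.35e-05, which gave reads for each gene and a library size of 17406238 to 20974002. These reads served only for the counting intervals.

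Ratios were taken on log2(FPKM + 0.1) where the mean FPKM over the libraries reached 1, and 2-fold was the cutoff. No test across genes was run, since each group has 1 library. The members and lists were chosen with earlier results of these data known. Named beside the members are up to 3 genes of each list past 2-fold in either line with the largest ratio, the 3 genes most like IL32, TRAF1 and BIRC3, overlapping genes and the leading marker genes. RELA, REL, CXCL8, IL6, NFKBIB, NFKBIE and TRAF4 fall outside this rule and were added after their values were seen. SOD2 has 2 gene identifiers, and the one with the higher mean was used. The kB consensus has 10 letters and was matched on both strands of the RefSeq windows. The scripts were tested on simulated data. Python 3.11.15, numpy 2.4.6, pandas 2.3.3, scipy 1.17.1 and matplotlib 3.10.9 were used. There were 11 alternatives, namely pseudocounts of 1 and 0.01, TPM, scaling to the 75th percentile, centring on the median, no filter, filters at 0.1 and 5, protein-coding genes only, a counting interval that leaves out 1, and a cutoff of 1.5-fold.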

Additional observations from a re-analysis of the deposited data

Results flagged for a closer look

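ICAM1 and TNFAIP2 were higher in Bru in U251 and lower in Bru in U87, each with counting intervals that left out a ratio of 1 in both lines. The log2 ratio in U87 minus that in U251 was -0.87 for ICAM1 and -0.51 for TNFAIP2 on FPKM + 0.1. With 1 library in each group, this difference was not tested. By sign alone, without regard to the intervals, 32.6% of all genes that passed the filter had opposite signs in the 2 lines. By the same count it was 3 of the 10 genes, NFKB1 included. ICAM1 also had the fewest reads of the 10 genes in U251 Bru, 80. It had the largest share of sequence found in other genes, antisense genes included. The part of either in the result was not tested.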

How the results depend on the processing

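No paired analysis was possible because each group has 1 library and no replicate number within a line, and no replicate could be left out for the same reason. A fit with line as a term, which takes the 2 lines as replicates of Bru, would leave 1 residual degree of freedom and was not run. The Bru to Control ratios of the 10 genes kept their sign in both lines under the other pseudocounts and scalings. Of 200 values recomputed for single genes, 188 moved by less than the distance from the middle to an end of their counting interval. The other 12 moved by more, 11 of them with a pseudocount of 1, which lowers the ratios of low genes. With it, the log2 ratio in U251 was 2.44 for IL32, 1.47 for TRAF1, 1.76 for BIRC3 and 1.18 for TNFAIP3, and IL32 in U87 was at 0.71.

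In U251, 5 of the 10 genes were past 2-fold, or 2 where a mean FPKM of at least 5 was required. In U87 it was 1 gene, or 0 with a pseudocount of 1 or a minimum of 5, and 2 with a pseudocount of 0.01, TPM, the 75th percentile, median centring or a cutoff of 1.5-fold. The pathway lists gave 11 genes past 2-fold in U251, or 7 with a pseudocount of 1 or a minimum of 5 and 22 at 1.5-fold. In U87 they gave 1, or 0 with a pseudocount of 1, 4 with 0.01 or TPM, 5 with no filter, 3 at a minimum of 0.1 and 8 at 1.5-fold. Of all genes, 1140 were past 2-fold in U251, or 616 with a pseudocount of 1, 4963 with no filter, 3727 and 473 at a minimum of 0.1 and 5, 700 among protein-coding genes and 3471 at 1.5-fold. In U87, 432 were past it, or 190, 4335, 2801, 83, 96 and 1173 in the same order, and 222 where the counting interval also left out 1. The split in U251 was 435 higher and 705 lower, and 551 and 578 after scaling to the 75th percentile. The smallest counts behind a member, 27 and 49 reads of IL32 in the Control libraries, limit its ratio most.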
